A study of Mus musculus with 19 samples.

Results

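Collagen chain genes encode the chains that wind into triple helices and build the fibers and networks of the extracellular matrix. The members were taken as every protein-coding gene whose symbol has the form Col, a number, a and a number, and 44 of the 46078 genes in the deposited table qualified. By structural class they comprise 11 fibrillar genes, 6 of the basement membrane network, 6 of the beaded filament, 3 of the short-chain network, 9 FACIT genes (fibril-associated collagens with interrupted triple helices), 4 transmembrane genes, 2 multiplexins, the anchoring fibril gene *Col7a1*, and the 2 others *Col26a1* and *Col28a1*. A further grouping crosses these classes. It holds the 7 cartilage-type members *Col2a1*, *Col9a1*, *Col9a2*, *Col9a3*, *Col10a1*, *Col11a1* and *Col11a2*.

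RNA was sequenced from 19 samples of mouse mammary tissue. The study gives a mixed FVB, C57 and BALB/c background for the *N* and *NP* mice and names none for the wild-type mice. Tumors from *N* mice (T N, n = 4) and from *NP* mice (T NP, n = 4) stand beside mammary glands of tumor-bearing *N* mice (MG N, n = 4) and *NP* mice (MG NP, n = 4) that held no malignant lesion, and glands of wild-type mice (MG WT, n = 3). The study describes the wild-type mice as age-matched, and the labels state no ages. The MMTV-neu transgene drives the rat oncogene neu in mammary epithelium and is carried by all groups except MG WT. By the genotype labels, MMTV-neu with Fsp-Cre was carried by all T N tumors and by MG N replicate 1. Fsp-Cre is a Cre transgene expressed in fibroblasts. The other MG N replicates (2, 3 and 4) instead carried MMTV-neu with p53wm-R172H/+, a conditional allele that makes wild-type p53 until Cre converts it, and lacked Cre. All T NP and MG NP samples carried MMTV-neu, p53wm-R172H/+ and Fsp-Cre, so that R172H mutant p53 arises in fibroblasts. The Cre and allele status of T N and most MG N samples therefore differs as well as the tissue. Within that comparison these cannot be told apart except through MG N replicate 1. The T NP and MG NP samples share the same genotype label and differ in tissue. Recovered reads per library ranged from 54677315 to 62645459 in MG WT, 20899152 to 26373331 in MG N, 21467242 to 26888814 in MG NP, 23520971 to 27262440 in T N, and 20972633 to 23234914 in T NP. Apart from the sample number, library names of T NP replicates 1 and 2 differ only by a suffix, and whether both come from the same animal is not stated. The MG WT libraries were the deepest, so depth and the wild-type group cannot be told apart.

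Fibrillar collagens such as types I and III form the banded fibers of connective tissue and are made mostly by fibroblasts. Type IV chains form the sheet-like network of basement membranes under epithelium and around vessels, fat cells and muscle fibers, and type VI chains form beaded filaments close to it. Types II, IX and XI are best known from the fibrils of hyaline cartilage, type X from the cartilage that is replaced by bone, and type XVII sits in the hemidesmosomes that hold basal epithelial cells to their basement membrane. In the normal mammary gland, myoepithelial cells and fibroblasts both contribute to the matrix around the ducts.

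Levels were compared between genes as normalized counts per kb of exon, and the order of the members differed between gland and tumor. Over all samples *Col3a1* had the highest mean level per kb (5358), ahead of *Col9a1* (4008), *Col4a1* (3384), *Col1a1* (2483) and *Col4a2* (1715). This order depends on the length used, since with the longest transcript *Col3a1* was at 9452 and *Col1a2* ranked 3 (3946). It also pools groups that differ, since the group mean of *Col3a1* ran from 1597 in T NP to 14650 in MG N. Within MG N replicate 2 was at 28516, and the lead of *Col3a1* over *Col9a1* rests on that library. *Col9a1*, a chain of the FACIT type IX, ranked 1 of 44 by mean level per kb in both tumor groups, and ranked 28 in MG WT, 17 in MG N and 19 in MG NP. Its mean level per kb was 9303 ± 4518 (SD, n = 4) in T N and 9362 ± 3048 (SD, n = 4) in T NP, against 3730.5 ± 4589 and 1517 ± 591 for the fibrillar *Col1a1* in the same samples. The spreads of these genes overlapped in T N and were apart in T NP. *Col17a1* moved the opposite way in this order, from rank 6 in MG WT to rank 43 in T N and T NP. Its neighbors in the T N order were *Col6a4* (rank 42) and *Col19a1* (rank 44), with 24 and 2 reads in that group as a whole.

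The share of each class in the summed collagen level per kb shifted accordingly. FACIT genes held a median share of 17.4% in MG WT, 5.05% in MG N, 8.47% in MG NP, 37.9% in T N and 49.5% in T NP. Over single tumors the FACIT share ran from 28.1% to 52.3% in T N and 38.9% to 57.7% in T NP, above every gland (highest 24.1%). Fibrillar genes held 30.8% in MG WT, 54.4% in MG N, 38.3% in MG NP, 27.8% in T N and 23.5% in T NP, with a range of 21.7% to 53.7% in T N, where replicate 3 was the highest. Basement membrane genes held 23.9% in MG WT, 20.4% in MG N, 27.6% in MG NP, 19.2% in T N and 20.01% in T NP, with single samples from 10.5% to 33.3% in T N, 15.5% to 23.1% in T NP and 22.1% to 35.7% in MG NP. Beaded filament genes held 9.64% in MG WT, 14.1% in MG N, 15.7% in MG NP, 4.25% in T N and 3.72% in T NP. Transmembrane genes held 6.01% in MG WT, 0.445% in MG N, 0.997% in MG NP, 0.231% in T N and 0.364% in T NP. Short-chain network genes held 1.05% in MG WT, 0.187% in MG N, 0.468% in MG NP, 1.03% in T N and 1.03% in T NP, multiplexins 5.88% in MG WT, 5.15% in MG N, 5.74% in MG NP, 1.53% in T N and 1.68% in T NP, and the anchoring fibril gene *Col7a1* 1.31% in MG WT, 0.217% in MG N, 0.464% in MG NP, 0.11% in T N and 0.21% in T NP. Counted across these classes, the 7 cartilage-type genes held 6.52% in MG WT, 1.02% in MG N, 2.80% in MG NP, 40.0% in T N and 52.4% in T NP. All collagens together took 0.448% to 0.541% of the library total in MG WT, 0.788% to 2.78% in MG N, 0.355% to 1.07% in MG NP, 0.616% to 1.96% in T N, and 0.68% to 0.813% in T NP, so the total overlapped between tumor and gland. These sums are descriptions and were not tested.

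**Figure D1:**
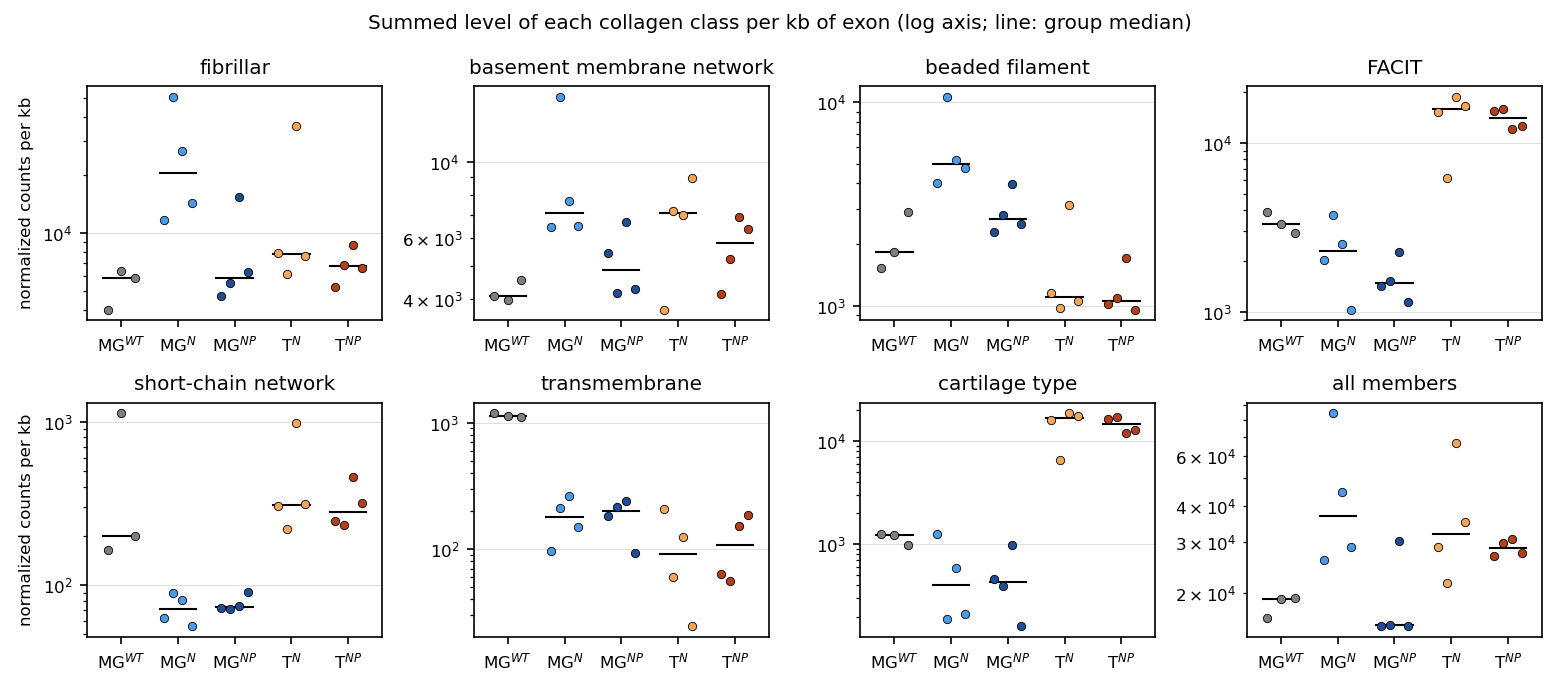
Summed level of the main collagen classes, in normalized counts per kb of exon on a log axis, for each of 19 samples by group. Each point is a sample and each line a group median. FACIT and cartilage-type sums are higher in every tumor than in every gland, while fibrillar sums overlap between tumor and gland.

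The labelled tissue was checked against markers of the cell types a mammary gland holds, because bulk RNA sums over all of them. Throughout, fewer cells of a type and less RNA per cell cannot be told apart. Of the 10 luminal epithelial genes the most abundant over all samples was *Krt18*, and the list summed to 0.499, 0.533 and 0.544% of the library in MG WT, 0.124, 0.0706, 0.159 and 0.0883% in MG N, 0.130, 0.112, 0.146 and 0.0383% in MG NP, 0.450, 0.708, 0.387 and 0.483% in T N, and 0.467, 0.592, 0.503 and 0.504% in T NP. The 7 basal epithelial genes, led by *Oxtr*, summed to 0.133, 0.135 and 0.158% in MG WT, 0.0217, 0.0223, 0.034 and 0.0143% in MG N, 0.0247, 0.0174, 0.0272 and 0.0089% in MG NP, 0.0026, 0.0045, 0.0076 and 0.0027% in T N, and 0.0033, 0.0032, 0.0042 and 0.0071% in T NP. The defining basal keratin *Krt5* was at 3.41 to 26.3 normalized counts in the tumors against 6884 to 9245 in MG WT. White adipocyte markers were low in the wild-type glands as well as in the tumors. These 9 genes, led by *Fabp4*, summed to 0.0174, 0.0204 and 0.0142% in MG WT, 1.38, 1.34, 1.21 and 1.70% in MG N, 0.636, 0.481, 0.929 and 1.12% in MG NP, 0.025, 0.0059, 0.0333 and 0.0102% in T N, and 0.0151, 0.0181, 0.0116 and 0.011% in T NP, and *Adipoq*, a hormone of fat cells, was at 1.71, 23.4 and 9.82 normalized counts in MG WT. The MG WT samples thus held only low levels of markers that the fat pad of a gland would carry, while holding high epithelial markers. Skeletal muscle genes (20, led by *Ttn*) stood apart in 3 of the MG NP libraries, at 3.63, 19.6, 0.132 and 11.2% of the library, against 0.152, 0.195, 0.0927 and 0.02% in MG N, 0.0051, 0.0094 and 0.007% in MG WT, 0.0358, 0.0029, 0.204 and 0.0027% in T N, and 0.0026, 0.0156, 0.0451 and 0.0461% in T NP.

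The comparison of T N tumors with MG N glands asks which collagens differ between tumor and gland where fibroblasts carry wild-type p53. All 3 short-chain genes, 5 of 6 tested cartilage-type genes and 4 of 8 tested FACIT genes rose in the tumors, while all 6 beaded filament genes and the hemidesmosomal *Col17a1* fell. Of 42 members past the filter on low values, 9 rose and 14 fell, beside 12.8% higher and 22.3% lower among all genes tested. The median log2 change was -0.73 over the members and -0.05 over all genes. By class, 4 FACIT, 3 short-chain, 1 fibrillar and 1 basement membrane gene rose, with none of the other classes among the risers. Those that fell were 6 beaded filament, 3 transmembrane and 2 fibrillar genes, and 1 each of the basement membrane, multiplexin and other classes. The members not tested here were *Col2a1* and *Col19a1*. The p-values measure spread between samples. A gene whose lower group reached the filter's 10 normalized counts in no more than 2 of its 4 samples (1 of 3 in MG WT) passed the filter largely through its higher group, so its change is given without a p and supports nothing. Among the members called here these were *Col10a1*, *Col6a4*, *Col6a5* and *Col17a1*, beside 8 other rises and 11 other falls. *Col22a1*, which was not called, was 1 more. All counts of called genes are descriptions.

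The comparison of T NP tumors with MG NP glands asks the same where fibroblasts carry mutant p53. Here too the largest rises by limma were those of the cartilage-type *Col11a1* and *Col9a1*, and the largest fall was that of *Col17a1*. Of 43 members tested, 11 rose and 15 fell, beside 14.7% higher and 24% lower among all genes. The median log2 change was -0.45 over the members and -0.07 over all genes. All 9 members that rose in T N also rose here, where *Col2a1* and the transmembrane *Col25a1* rose in addition. No sample is used in both of these comparisons. The share of all genes higher in T N that were also higher in T NP was not computed here. By its own test the paper reports most genes upregulated in *N* tumors as upregulated in *NP* tumors too. The overlap of the collagens is a description only. By class, 4 FACIT, 3 short-chain and 2 fibrillar genes rose, with 1 basement membrane and 1 transmembrane gene. The falls were 4 beaded filament, 3 fibrillar, 2 FACIT, 2 transmembrane and 2 other genes, and 1 each of the basement membrane and multiplexin classes. *Col2a1*, *Col10a1*, *Col17a1* and *Col22a1* passed the filter through their higher group, beside 9 other rises and 13 other falls. *Col19a1* was not tested.

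**Figure D2:**
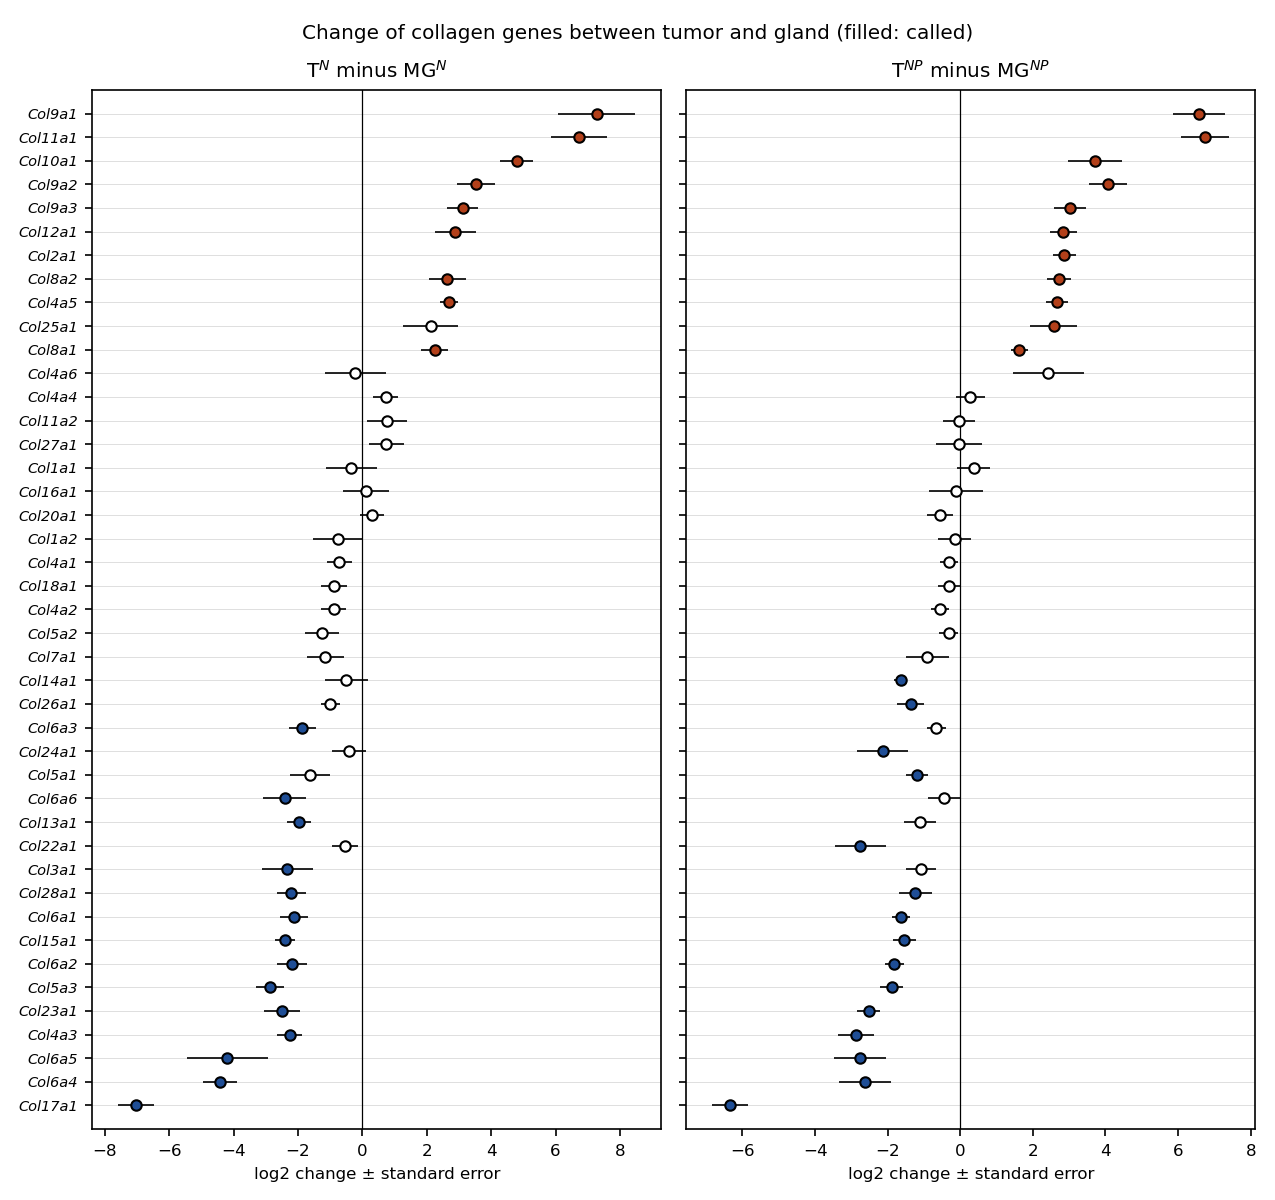
Log2 change of each tested collagen gene between tumor and gland, with its standard error, for T N minus MG N (left) and T NP minus MG NP (right). Filled points passed an adjusted p under 0.05 and a 2-fold change, with rises in red and falls in blue. *Col9a1* and *Col11a1* lie farthest to the right in both and *Col17a1* farthest to the left.

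Among the cartilage-type genes, *Col9a1* (ENSMUSG00000026147, chr1:24177610-24252684 of GRCm38), whose product joins *Col9a2* and *Col9a3* in type IX collagen, had the largest change by limma in T N, and *Col11a1* had it in T NP. In T N edgeR and DESeq2 put *Col10a1*, with 3 reads in MG N, first (5.63 and 5.86). There *Col11a1* was at 5.58 and *Col9a1* at 5.52 with both tools. The normalized counts of *Col9a1* were 3766, 63.2, 224 and 83.4 in MG N, 666, 609, 1330.1 and 91.7 in MG NP, and 130.1, 459 and 153 in MG WT. In tumors they were 53575, 14048, 66822 and 54143 in T N and 61620.1, 59551, 30883 and 37738 in T NP. Every tumor lay above every gland, T N replicate 2 was the lowest tumor, and MG N replicate 1 was the highest gland by far. On the log2 scale *Col9a1* rose by 7.29 ± 1.19 (adjusted p = 0.00134) in T N and by 6.59 ± 0.72 (adjusted p = 0.000138) in T NP. The first value was 8.57 without MG N replicate 1 and 6.61 without MG N replicate 2, and the second 5.80 without MG NP replicate 4. *Col11a1* (ENSMUSG00000027966, chr3:114030540-114220718 of GRCm38), a chain of the minor fibrillar type XI, was at 2365, 171, 312 and 84.5 in MG N, 125, 314, 883 and 69.7 in MG NP, and 377, 515 and 324 in MG WT. In tumors it was at 34329.7, 28868, 45386 and 31006 in T N and 21719, 28176, 20697 and 25498 in T NP. The tumor groups again lay wholly above the glands. *Col11a1* rose by 6.73 ± 0.87 (adjusted p = 0.000448) in T N and by 6.74 ± 0.67 (adjusted p = 8.98e-05) in T NP, with 7.69 and 6.09 for T N without MG N replicates 1 and 4, and 7.40 for T NP without MG NP replicate 3. MG N replicate 1, the only MG N gland with Fsp-Cre, was thus the highest gland for both genes. The MG NP glands, which all carry Fsp-Cre, lay below it, at 91.7 to 1330.1 for *Col9a1* and 69.7 to 883 for *Col11a1*. The part of Cre was not tested.

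The remaining type IX chains rose less. *Col9a2* was at 215, 222, 918 and 218 in MG N, 429, 351, 1118 and 174 in MG NP, and 2059.8, 1967 and 1530.0 in MG WT. In tumors it was at 6420.4, 1859, 2312 and 6427 in T N and 4475, 6379, 10704 and 7697 in T NP. All tumors lay above the MG N and MG NP glands, but T N replicate 2 lay within the range of MG WT. *Col9a2* rose by 3.54 ± 0.59 (adjusted p = 0.00146) in T N and by 4.07 ± 0.51 (adjusted p = 0.000288) in T NP. *Col9a3* was at 974, 301, 822 and 290.4 in MG N, 624, 447, 901 and 192 in MG NP, and 1977, 1650.3 and 1588 in MG WT, and in tumors at 2901, 3512, 4675 and 8367 in T N and 4682, 4444, 2648 and 3867 in T NP. Every tumor lay above every gland for this gene, which rose by 3.12 ± 0.48 (adjusted p = 0.00104) in T N and by 3.02 ± 0.43 (adjusted p = 0.000552) in T NP. Exons of *Col9a3* share 234 bp with Tcfl5 on the opposite strand, and whether counting used strand is not stated, so reads there cannot be told apart. With the skeletal muscle score as a covariate the T NP values were 4.61 for *Col9a1*, 3.05 for *Col9a2*, 1.72 for *Col9a3* and 5.09 for *Col11a1*, all still called. That score was 3.74 to 8.45 in T NP and 9.08 to 16.98 in MG NP, without overlap. Values under this covariate therefore do not separate muscle from group. Without MG NP replicates 2 and 4, an alternative chosen after seeing the data, the T NP changes were 5.59, 3.33 and 2.35 for the type IX chains.

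Type II collagen, the main fibril chain of cartilage, was nearly absent. *Col2a1* was at 6.37, 4.597, 1.88 and 0 in MG N, 2.86, 4.28, 2.17 and 2.58 in MG NP, and 11.9, 27.3 and 71.8 in MG WT, and in tumors at 3.41, 30.6, 9.09 and 99.2 in T N and 20.2, 29.3, 36.4 and 26.2 in T NP. No tumor held more than 99.2 normalized counts, and the highest T N tumor was replicate 4. In T NP all 4 tumors lay above the MG NP glands, none of which had more than 3 reads. The summed reads, scaled by depth, gave a ratio of 9.56 (95% interval 4.97 to 20.6), and these intervals cover counting error only. The fitted change of 2.87 ± 0.32 depends on the pseudocount and is no bound. *Col10a1*, the short-chain collagen of hypertrophic cartilage, was at 2.55, 1.15, 0 and 0 in MG N, 0.954, 1.43, 0 and 11.6 in MG NP, and 0, 0 and 0.517 in MG WT. In tumors it was at 32.9, 75.9, 33.3 and 50.2 in T N and 66.1, 20.7, 32.5 and 35.0 in T NP. Every tumor lay above every gland, and MG NP replicate 4 held most of the MG NP reads. The MG N glands had 3 reads in all against 177 in T N, a ratio of 59.2 (95% interval 19.9 to 289.98). In T NP the ratio was 12.3 (95% interval 6.66 to 25.3). The fitted changes of 4.80 and 3.71 depend on the pseudocount, and the second was 4.44 without MG NP replicate 4. Exons of *Col10a1* share 18 bp with Nt5dc1 on the opposite strand. *Col11a2*, the other type XI chain in the list, was at 116, 75.9, 70.4 and 292 in MG N, 139, 136, 387 and 191.1 in MG NP, and 274, 244 and 193 in MG WT, and in tumors at 108, 144, 169 and 607 in T N and 255, 287, 171 and 99.9 in T NP. It did not pass the test, with log2 differences of 0.78 ± 0.62 (adjusted p = 0.319) in T N and -0.04 ± 0.43 (adjusted p = 0.944) in T NP, and tumors and glands overlapped.

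**Figure D3:**
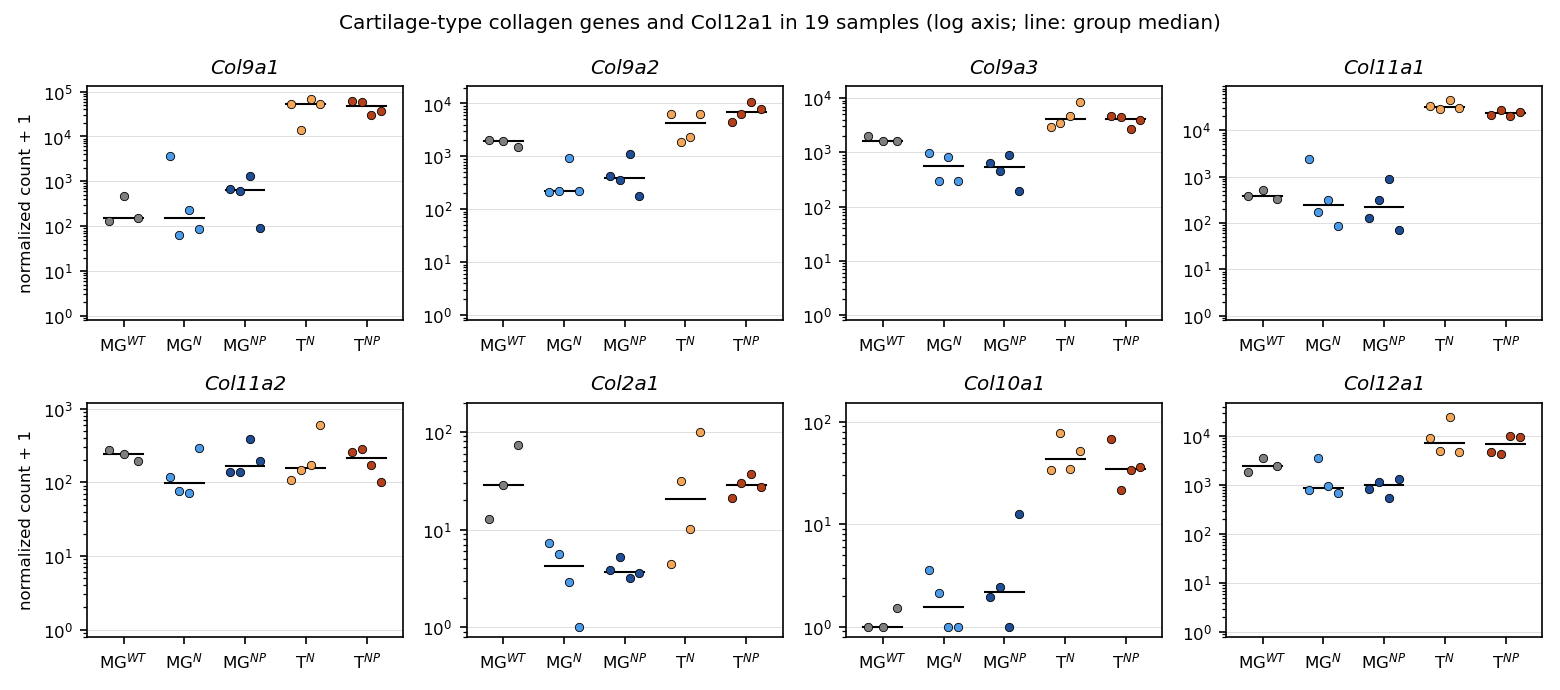
Normalized counts plus 1, on log axes, of the 7 cartilage-type collagen genes and *Col12a1* in each of 19 samples by group. Points are samples and lines are group medians. For *Col9a1*, *Col11a1*, *Col9a3* and *Col10a1* every tumor lies above every gland, while *Col11a2* overlaps and *Col2a1* reaches at most 99.2 normalized counts.

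Of 14 cartilage matrix and chondrocyte genes, 7 were tested in T N minus MG N, where 4 rose and 1 fell (median 2.24 beside -0.05 over all genes), and 7 in T NP minus MG NP, where 5 rose and 2 fell (median 1.47 beside -0.07). Over all genes the calls were 12.8% higher and 22.3% lower in the first and 14.7% higher and 24% lower in the second. *Chad* in T N, and *Snorc* and *Cytl1* in T NP, passed the filter through their higher group, which leaves 3 and 4 rises. The rest of the list was too low to test. *Comp*, a pentameric matrix protein that binds collagen fibrils, was at 28.6, 38.5, 45.5 and 31.0 in MG NP and 1055, 73.6, 47.9 and 42.2 in MG N, and in tumors at 4653, 6562, 13064 and 21462 in T N and 7264, 8545, 435 and 1940.3 in T NP. It rose by 6.40 ± 0.99 (adjusted p = 0.00105) in T N and by 6.21 ± 0.85 (adjusted p = 0.000426) in T NP, and each tumor group lay above its own glands. *Cnmd*, which encodes chondromodulin, rose by 3.32 ± 1.04 (adjusted p = 0.0258) in T N and by 3.27 ± 0.55 (adjusted p = 0.00127) in T NP. *Chad*, a small leucine-rich protein of cartilage, rose by 2.41 ± 0.55 in T N. *Cytl1* fell by 3.23 ± 0.97 (adjusted p = 0.0224) in T N and fell by 5.82 ± 0.87 in T NP. *Sox9*, the transcription factor of early chondrocytes, rose by 2.24 ± 0.33 (adjusted p = 0.000826) in T N and by 1.47 ± 0.28 (adjusted p = 0.00235) in T NP, yet its highest values were in MG WT, at 5719, 6449 and 6399. Defining cartilage genes were low in the tumors. *Acan*, the large proteoglycan of cartilage, was at 0 to 2.27 normalized counts over the tumors, *Matn1* at 0 in all 8, *Ucma* at 0 in all 8, and *Hapln1* at 0 to 1.17. The list summed to 0.0275, 0.0313 and 0.0284% of the library in MG WT, 0.0149, 0.0086, 0.0096 and 0.0082% in MG N, 0.0095, 0.0185, 0.0093 and 0.015% in MG NP, 0.032, 0.0431, 0.0815 and 0.103% in T N and 0.0431, 0.0439, 0.0148 and 0.0256% in T NP, with *Comp* its most abundant gene over all samples. Among 7 bone genes, *Alpl*, the tissue-nonspecific alkaline phosphatase, rose by 2.52 ± 0.46 (adjusted p = 0.00233) in T N and by 3.08 ± 0.35 (adjusted p = 0.000175) in T NP and *Runx2* fell by 1.38 ± 0.30 (adjusted p = 0.00556) in T N and fell by 1.54 ± 0.48 (adjusted p = 0.0238) in T NP, while the bone matrix genes *Bglap* and *Ibsp* reached at most 4.88 and 1.22 in tumors. The bone list had 3 genes tested in T N minus MG N and 4 in T NP minus MG NP, with medians of 1.84 and 0.66.

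Fibrillar collagens I and III are the bulk of the gland's fibers. *Col1a1* was at 10412, 57855, 23290.1 and 10543 in MG N, 5187, 6001, 18480.3 and 4926 in MG NP, and 8057, 14499 and 12599.8 in MG WT, and in tumors at 9574, 7676, 69617 and 11066 in T N and 6361, 7967, 15268 and 10219 in T NP. *Col1a2*, its partner in type I, was at 10834, 76881, 41393 and 24434 in MG N, 5613, 12226, 27711 and 12115 in MG NP, and 8910.1, 16158 and 11423 in MG WT, and in tumors at 13447, 9479, 73345 and 11069 in T N and 8135, 9649, 16929 and 11176 in T NP. MG N replicate 2, MG NP replicate 3 and T N replicate 3 were the highest of their groups for both genes, and tumors and glands overlapped. Neither passed the test. The log2 difference of *Col1a1* was -0.35 ± 0.79 (adjusted p = 0.733) in T N and 0.37 ± 0.45 (adjusted p = 0.505) in T NP, and that of *Col1a2* -0.76 ± 0.76 (adjusted p = 0.431) and -0.16 ± 0.45 (adjusted p = 0.781). *Col3a1* was at 64095, 279912, 154828 and 76389 in MG N, 23711, 20744, 76979.8 and 29043 in MG NP, and 12680.1, 17921 and 18614 in MG WT, and in tumors at 17368, 10911, 118481 and 14853 in T N and 11162, 17335, 21348 and 12865 in T NP. It fell by 2.33 ± 0.78 (adjusted p = 0.0337) in T N, although T N replicate 3 lay within the range of MG N. That call was lost with edgeR (-1.81, adjusted p = 0.116). It was also lost without MG N replicate 2 (-1.92, 0.0878), MG N replicate 3 (-2.21, 0.0765), T N replicate 1 (-2.17, 0.0708), T N replicate 2 (-1.95, 0.0825) or T N replicate 4 (-2.10, 0.0823), and the change was -3.10 without T N replicate 3. In T NP the log2 difference of *Col3a1* was -1.09 ± 0.42 (adjusted p = 0.0502). Type V chains seed type I fibrils. *Col5a3* was at 4248, 12610.1, 6582 and 7129 in MG N, 1373, 2195, 3726 and 3186 in MG NP, and 878, 1224 and 1663 in MG WT, and in tumors at 712, 659, 2271 and 820.5 in T N and 531, 676, 919.6 and 583 in T NP. Each tumor group lay below its glands, and *Col5a3* fell by 2.87 ± 0.45 (adjusted p = 0.00105) in T N and fell by 1.88 ± 0.32 (adjusted p = 0.00127) in T NP. *Col5a1* fell by 1.20 ± 0.31 (adjusted p = 0.00959) in T NP, a call lost without MG NP replicate 3, where the change was -0.97, and under the muscle covariate (-1.44, adjusted p = 0.0827); in T N its difference was -1.62 ± 0.62 (adjusted p = 0.0552). *Col5a2* did not pass in either comparison (-1.26 ± 0.53, adjusted p = 0.0744, and -0.32 ± 0.26, adjusted p = 0.323). Of the remaining fibrillar genes, *Col27a1* did not pass in either (0.74 ± 0.54, adjusted p = 0.272, and -0.04 ± 0.62, adjusted p = 0.961). *Col24a1* fell by 2.14 ± 0.70 (adjusted p = 0.0281) in T NP and did not pass in T N. Its values, and the settings that ended its call, are given with those of muscle.

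*Col4a1* and *Col4a2*, the common chains of type IV, did not pass the test between tumor and gland. *Col4a1* was at 30409.5, 73889, 35104 and 31914 in MG N, 23722, 18582, 31264 and 20073 in MG NP, and 12611, 11155 and 12393 in MG WT, and in tumors at 13112, 29377, 26906 and 33666 in T N and 13338, 16916, 26255 and 19250.2 in T NP. *Col4a2* was at 13165, 34207, 15829.8 and 13040.3 in MG N, 12236, 8385, 14434 and 9361 in MG NP, and 8549, 7719.8 and 8217 in MG WT, and in tumors at 5094, 10265, 11880.0 and 12804 in T N and 5548, 6330.0, 10600.0 and 7957 in T NP. For *Col4a1* tumors and glands overlapped, while for *Col4a2* every T N tumor lay below every MG N gland and T NP overlapped MG NP. The log2 differences were, for *Col4a1*, -0.71 ± 0.38 (adjusted p = 0.147) in T N and -0.32 ± 0.25 (adjusted p = 0.304) in T NP, and for *Col4a2*, -0.89 ± 0.39 (adjusted p = 0.0847) and -0.56 ± 0.25 (adjusted p = 0.0843). *Col4a5*, a chain of epithelial and kidney basement membranes, was at 2271, 1354, 2167 and 1003 in MG N, 1893, 2037, 1909.5 and 817 in MG NP, and 5727, 5845 and 5287 in MG WT, and in tumors at 7669, 11266, 10169 and 12946 in T N and 9899, 9302, 8259 and 13089 in T NP. Every tumor lay above every gland, and *Col4a5* rose by 2.68 ± 0.29 (adjusted p = 0.000202) in T N and by 2.67 ± 0.30 (adjusted p = 0.000157) in T NP. Its head-to-head neighbor *Col4a6* was at 228, 816, 1881 and 791 in MG N, 965, 802, 275 and 179 in MG NP, and 1958, 3507 and 6846 in MG WT, and in tumors at 341, 255, 379 and 4557 in T N and 290.4, 4775, 4517 and 5098 in T NP. The tumors fell into a low set and a high set that do not follow genotype: T N replicates 1, 2 and 3 and T NP replicate 1 held 255 to 379, and T N replicate 4 and T NP replicates 2, 3 and 4 held 4517 to 5098. *Col4a6* was not called, with differences of -0.22 ± 0.96 (adjusted p = 0.864) and 2.42 ± 0.97 (adjusted p = 0.0609); its pattern was picked out after its values were seen. *Col4a3* was at 164, 79.3, 85.5 and 118 in MG N, 125, 103, 64.99 and 181 in MG NP, and 43.5, 100.1 and 43.4 in MG WT, and in tumors at 14.8, 15.8, 37.4 and 24.5 in T N and 5.61, 24.4, 20.8 and 13.7 in T NP. It fell by 2.26 ± 0.39 (adjusted p = 0.00167) in T N and fell by 2.88 ± 0.49 (adjusted p = 0.00142) in T NP, below every MG N and MG NP gland, and the T NP call was lost under the muscle covariate (-1.59, adjusted p = 0.126). Its exons share 563 bp with C430014B12Rik on the opposite strand. *Col4a4*, which shares its start region with *Col4a3*, did not pass (0.73 ± 0.39, adjusted p = 0.147, and 0.28 ± 0.40, adjusted p = 0.571).

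All 6 beaded filament genes fell in T N, of which *Col6a4* and *Col6a5* passed the filter through MG N, and 4 fell in T NP, beside 22.3% and 24% lower over all genes. *Col6a1* was at 8394, 19686, 11442 and 10101 in MG N, 5115, 6432, 8285 and 5283 in MG NP, and 3114, 4009.8 and 6319 in MG WT, and in tumors at 2373, 1809, 6593 and 1921 in T N and 1537, 1942, 3072 and 1709 in T NP. Each tumor group lay below its own glands, and *Col6a1* fell by 2.11 ± 0.43 (adjusted p = 0.00388) in T N and fell by 1.63 ± 0.24 (adjusted p = 0.000686) in T NP. Its neighbor *Col6a2* fell by 2.18 ± 0.47 (adjusted p = 0.00486) in T N and fell by 1.81 ± 0.27 (adjusted p = 0.000620) in T NP. *Col6a3*, the long chain of type VI, was at 16721, 49411, 19574 and 17946 in MG N, 7515, 8133, 14266 and 9118 in MG NP, and 4959, 4724 and 7034 in MG WT, and in tumors at 5057, 5095, 12714 and 5042 in T N and 6299, 5739.6, 8447 and 4221 in T NP. It fell by 1.86 ± 0.42 (adjusted p = 0.00641) in T N, while its difference in T NP was -0.66 ± 0.26 (adjusted p = 0.0592). *Col6a4* was at 68.8, 101, 258 and 296 in MG N, 181, 60.0, 517 and 43.9 in MG NP, and 524, 488 and 417 in MG WT, and in tumors at 3.41, 9.48, 7.07 and 5.84 in T N and 15.7, 25.6, 22.1 and 16.2 in T NP. All 8 tumors held fewer counts than any gland, and *Col6a4* fell by 4.43 ± 0.53 in T N and fell by 2.63 ± 0.71 (adjusted p = 0.0130) in T NP, where the change was -1.95 without MG NP replicate 3, -3.91 without MG NP replicates 2 and 4, -4.82 with the muscle covariate and -3.35 with edgeR. By summed reads the MG N to T N ratio was 29.2 (95% interval 19.5 to 45.9, for counting error only). *Col6a5* was at 117, 71.3, 59.2 and 409 in MG N, 97.3, 62.8, 172.2 and 29.7 in MG NP, and 62.7, 282 and 289.9 in MG WT, and in tumors at 13.6, 1.05, 60.6 and 0 in T N and 2.24, 13.4, 14.3 and 21.2 in T NP. It fell by 4.20 ± 1.26 in T N, where T N replicate 3 reached the lowest MG N gland. This call was lost with edgeR (-3.09), without MG N replicate 4 (-3.61) and without T N replicate 2 (-3.64). The change was -5.28 without T N replicate 3 and -3.29 without T N replicate 4. In T NP *Col6a5* fell by 2.76 ± 0.71 (adjusted p = 0.0102), with -2.16 without T NP replicate 1 and -3.54 without MG NP replicates 2 and 4, and the call was lost with the muscle covariate (-3.01, adjusted p = 0.114). *Col6a6* fell by 2.42 ± 0.67 (adjusted p = 0.0159) in T N and differed by -0.45 ± 0.44 (adjusted p = 0.416) in T NP.

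*Col17a1* (ENSMUSG00000025064, chr19:47646344-47692094 of GRCm38), the transmembrane collagen of hemidesmosomes, showed the largest fall by limma. It passed the filter through its higher group in both comparisons, so this fall is given without a p and supports nothing. It was at 298, 782, 858 and 478 in MG N, 641, 718, 942 and 309.9 in MG NP, and 6606, 6225 and 6112 in MG WT, and in tumors at 2.27, 1.05, 10.1 and 3.501 in T N and 3.36, 11.0, 11.7 and 3.75 in T NP. MG WT held the highest values, the MG N and MG NP glands lay between, and all 8 tumors held the lowest, with no overlap between the 3 levels. *Col17a1* fell by 7.02 ± 0.56 in T N and fell by 6.34 ± 0.49 in T NP. By summed reads the gland to tumor ratio was 143 (95% interval 87.7 to 250.05) for *N* and 90.7 (95% interval 60.8 to 142) for *NP* mice. These intervals cover counting error only and leave out the spread between samples. The basal epithelial list moved with *Col17a1*: 5 of its 7 genes fell and 1 rose in T N (median -3.12), and 4 fell and 1 rose in T NP (median -2.08). The falls included *Krt5* (-6.91 and -6.49 on the log2 scale) and *Krt14* (-5.80 and -4.55), while the desmosomal *Dsg3* rose (4.17 and 2.75). Among all genes tested, 22.3% fell and 12.8% rose in T N, and 24% and 14.7% in T NP. *Dsg3* in both, and *Krt5* and *Krt14* in T N, passed the filter through their higher group. The part of these markers in the *Col17a1* result was not tested. *Col7a1*, the anchoring fibril chain of the same epithelial junction, was at 755, 1158, 1929.9 and 448 in MG N, 708, 1178, 1489 and 593 in MG NP, and 4082, 2544 and 2189.8 in MG WT, and in tumors at 268, 199, 895 and 650.1 in T N and 1094, 159.8, 919.6 and 367 in T NP. It did not pass the test between tumor and gland (-1.15 ± 0.57, adjusted p = 0.124, and -0.91 ± 0.60, adjusted p = 0.225). Among the other transmembrane genes, *Col23a1* fell by 2.49 ± 0.56 (adjusted p = 0.00599) in T N and fell by 2.52 ± 0.32 (adjusted p = 0.000280) in T NP. *Col13a1* fell by 1.97 ± 0.36 (adjusted p = 0.00225) in T N and differed by -1.12 ± 0.44 (adjusted p = 0.0552) in T NP. *Col25a1*, the only transmembrane gene higher in tumors, rose by 2.58 ± 0.65 (adjusted p = 0.00909) in T NP and differed by 2.12 ± 0.85 (adjusted p = 0.0636) in T N.

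**Figure D4:**
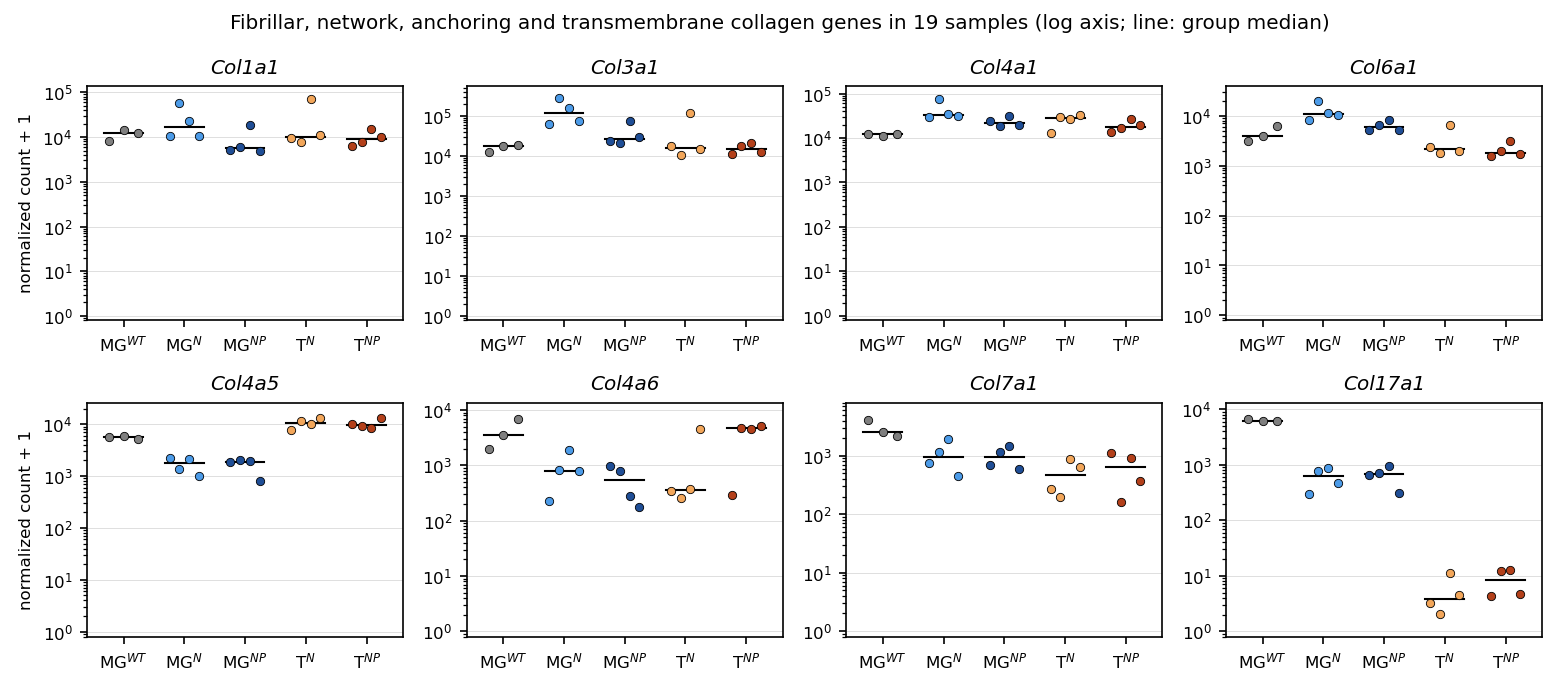
Normalized counts plus 1, on log axes, of 8 collagen genes of other classes in each of 19 samples by group. Points are samples and lines are group medians. *Col17a1* is lowest in all 8 tumors, *Col4a5* is highest in them, and *Col4a6* splits the tumors into a set at 255 to 379 and a set at 4517 to 5098 normalized counts.

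The short-chain network genes *Col8a1* and *Col8a2*, known from vessel walls and the cornea, rose in both comparisons together with *Col10a1*. *Col8a2* rose by 2.64 ± 0.56 (adjusted p = 0.00466) in T N and by 2.72 ± 0.32 (adjusted p = 0.000210) in T NP, with 163 to 1194 normalized counts in tumors and 41.2 to 87.1 in the glands of tumor-bearing mice, while MG WT, at 221, 266 and 233, lay within the tumor range. *Col8a1* rose by 2.25 ± 0.43 (adjusted p = 0.00268) in T N and by 1.63 ± 0.24 (adjusted p = 0.000703) in T NP. Of the FACIT genes outside type IX, *Col12a1*, a chain that decorates type I fibrils, rose by 2.89 ± 0.65 (adjusted p = 0.00590) in T N and by 2.84 ± 0.36 (adjusted p = 0.000307) in T NP, from 694 to 3512 in MG N and 556 to 1339 in MG NP to 4674 to 24462 in T N and 4394 to 10042 in T NP, with 1849.6 to 3636 in MG WT. *Col14a1*, a related chain, went the other way in T NP, where it fell by 1.64 ± 0.18 (adjusted p = 0.000152) with all 4 tumors below the glands; in T N its difference was -0.50 ± 0.67 (adjusted p = 0.558). *Col16a1* did not pass (0.12 ± 0.71, adjusted p = 0.905, and -0.11 ± 0.74, adjusted p = 0.905), nor did *Col20a1* (0.29 ± 0.38, adjusted p = 0.541, and -0.55 ± 0.36, adjusted p = 0.216). *Col19a1* had 2 reads in T N and 2 in T NP, against 46 in MG N and 72 in MG NP, and the gland to tumor ratios of scaled reads were 22.9 (95% interval 5.99 to 195) and 34.3 (95% interval 9.15 to 289). Of the multiplexins, which occur in basement membrane zones, *Col15a1* fell by 2.40 ± 0.30 (adjusted p = 0.000390) in T N and fell by 1.54 ± 0.31 (adjusted p = 0.00302) in T NP, and *Col18a1*, the source of endostatin, did not pass (-0.89 ± 0.40, adjusted p = 0.0948, and -0.31 ± 0.30, adjusted p = 0.405). *Col28a1* fell by 2.21 ± 0.46 (adjusted p = 0.00432) in T N and fell by 1.24 ± 0.46 (adjusted p = 0.0464) in T NP. The T NP call was lost under TMM scaling (-1.14, adjusted p = 0.0611), with no filter (-1.24, 0.0535), scaled to library totals (-1.18, 0.0807), with T NP replicates 1 and 2 averaged (-1.11, 0.107), under the muscle covariate (-0.86, 0.452) and without any of MG NP replicates 1, 3 or 4 or T NP replicates 1, 2 or 4 (up to 0.116). *Col26a1* fell by 1.37 ± 0.37 (adjusted p = 0.0131) in T NP and differed by -0.999 ± 0.30 (adjusted p = 0.0219) in T N, just under the 2-fold threshold. The muscle covariate moved the T NP changes of *Col12a1* to 4.12, *Col25a1* to 3.97 and *Col26a1* to -2.39.

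*Col22a1*, which is known from muscle-tendon junctions, and *Col24a1* were highest in the MG NP glands with most muscle RNA. *Col22a1* was at 19.1, 13.8, 15.0 and 8.24 in MG N, 53.4, 231, 22.7 and 147 in MG NP, and 2.13, 7.81 and 1.55 in MG WT, and in tumors at 9.09, 7.38, 16.2 and 5.84 in T N and 17.9, 14.6, 6.49 and 8.74 in T NP. *Col24a1* was at 20.4, 29.9, 33.8 and 16.5 in MG N, 41.0, 197, 18.4 and 121 in MG NP, and 7.25, 22.5 and 14.0 in MG WT, and in tumors at 13.6, 17.9, 48.5 and 8.17 in T N and 11.2, 11.0, 23.4 and 13.7 in T NP. For both, MG NP replicates 2 and 4 were the highest of all samples, and the skeletal muscle share of the library was 3.63, 19.6, 0.132 and 11.2% in MG NP replicates 1 to 4. *Col22a1* fell by 2.75 ± 0.70 in T NP, and the change was -1.57 without replicates 2 and 4 of MG NP and -1.16 when the muscle score was a covariate, where its call was lost. Without MG NP replicate 3 *Col22a1* was at -3.35 and *Col24a1* at -2.73. *Col24a1* had a change of -0.92 (adjusted p = 0.163) without replicates 2 and 4, so that its call was lost, and the sign turned with the covariate (0.27). The *Col24a1* call was also lost without any of MG NP replicates 2 or 4 or T NP replicates 1, 2 or 4 (adjusted p up to 0.0692), or with T NP replicates 1 and 2 averaged (-2.03, adjusted p = 0.0658). In T N neither gene passed (-0.54 ± 0.41, and -0.42 ± 0.53, adjusted p = 0.531).

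The interaction asks whether the change from gland to tumor differs between *NP* and *N* mice, and it called 0 of 44 members. Over all genes 0% were called by limma. Without MG NP replicate 3 limma called 194 of all genes (11 higher, the rest lower), 14 higher and 6 lower without T N replicate 1, and 2 higher and 0 lower without MG NP replicate 4, with 0 members in each. At an unadjusted p under 0.05 the members counted 3 and all genes 7.93%, and edgeR and DESeq2 on the recovered reads also called 0 members. Of all 19367 genes tested, DESeq2 called 50 higher and 269 lower. A difference between the T N and T NP responses was therefore not shown for any collagen. The members under the unadjusted threshold, named here for that reason, were *Col6a3* (1.21 ± 0.53, adjusted p = 0.592), *Col6a6* (1.97 ± 0.86, adjusted p = 0.589) and *Col22a1* (-2.21 ± 0.85), which was low in the tumors. Genes called in only 1 of the comparisons had interaction values such as 1.24 ± 0.94 (adjusted p = 0.804) for *Col3a1* and -1.14 ± 0.74 (adjusted p = 0.759) for *Col14a1*. For *Col9a1* and *Col11a1* the values were -0.70 ± 1.502 (adjusted p = 0.956) and 0.01 ± 1.18 (adjusted p = 0.9997).

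The direct comparison of T NP with T N tumors asks whether mutant p53 in fibroblasts goes with a different collagen set in the tumor. The limma test called 0 of 41 members, beside 0.0421% of all genes. These 6 higher and 1 lower genes became 34 higher and 18 lower without T N replicate 1, and leaving out any other library gave 0. The median log2 difference was -0.31 over the members and -0.01 over all genes. At an unadjusted p under 0.05 there were 4 members (*Col6a4*, *Col11a1*, *Col13a1* and *Col14a1*) and 7.27% of all genes. DESeq2 called 1 member, *Col14a1*, beside 51 higher and 34 lower of all 16638 genes tested, and edgeR called 0 members. *Col14a1* was at 1429, 5773, 7392 and 7789 in T N and 1072, 1036, 1642 and 1127 in T NP, so that T N replicates 2, 3 and 4 lay above every T NP tumor while replicate 1 lay among them. Its difference was -1.96 ± 0.50 (adjusted p = 0.589), and without T N replicate 1 it was called. *Col6a4* was higher in every T NP tumor than in every T N tumor, at 15.7, 25.6, 22.1 and 16.2 in T NP and 3.41, 9.48, 7.07 and 5.84 in T N (1.53 ± 0.39). It passed the filter through T NP, so it supports nothing here, which leaves 3 of the 4. *Col11a1* was at 20697 to 28176 in T NP and 28868 to 45386 in T N (-0.53 ± 0.20, adjusted p = 0.681), with no overlap.

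The same question for the glands compares MG NP with MG N. The limma test called 0 of 42 members and 0% of all genes, which became 297 higher and 21 lower of all genes without MG NP replicate 3. At an unadjusted p under 0.05 there were 11 members and 10.5% of all genes. With edgeR 0 members were called, and DESeq2 called *Col22a1* higher and 5 members lower (*Col15a1*, *Col3a1*, *Col5a2*, *Col5a3* and *Col6a3*). Of all 18563 genes tested, DESeq2 called 401 higher and 113 lower. The median log2 difference was -0.30 over the members and -0.02 over all genes, and the fibrillar median was -1.19. *Col3a1* was at 23711, 20744, 76979.8 and 29043 in MG NP and 64095, 279912, 154828 and 76389 in MG N, and its log2 difference was -1.90 ± 0.58 (adjusted p = 0.340). Only MG NP replicate 3 reached the lower MG N glands. *Col5a3* differed by -1.53 ± 0.39 (adjusted p = 0.322) and *Col22a1* by 2.50 ± 0.69 (adjusted p = 0.327), and without MG NP replicate 3 *Col22a1* was called. Muscle genes took up to 19.6% of an MG NP library, and all 20 of them had positive differences (median 6.07). The fibroblast list had a median of -0.67, with 9 of 10 values negative, and the adipocyte list a median of -0.83, with 9 of 9 negative. None of these marker genes was called by limma. At an unadjusted p under 0.05 there were 20 muscle, 5 fibroblast and 5 adipocyte genes. With the muscle covariate 0 members were called, as without it, and the part of the cell types was not tested.

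Glands of tumor-bearing *N* mice were compared with wild-type glands to see how a gland without a lesion differs from a wild-type gland. By class, 4 of 11 fibrillar, 3 of 6 beaded filament and 2 of 6 basement membrane genes rose in MG N, while 2 of 2 short-chain and 2 of 4 transmembrane genes fell. Of 43 members tested, 13 rose and 12 fell in MG N, beside 19.1% higher and 17.9% lower of all genes. The median was 0.27 over the members and 0.02 over all genes. *Col22a1*, *Col26a1* and *Col2a1* passed the filter through their higher group, beside 11 other rises and 11 other falls. Only *Col10a1* was not tested. Those that rose were *Col3a1*, *Col5a1*, *Col5a2* and *Col5a3* of the fibrillar class, *Col4a1* and *Col4a2*, *Col6a1*, *Col6a2* and *Col6a3*, and *Col15a1*, *Col22a1*, *Col26a1* and *Col28a1*. Those that fell were *Col17a1*, *Col7a1*, *Col2a1*, *Col4a5*, *Col4a6*, *Col6a4*, *Col8a1*, *Col8a2*, *Col9a2*, *Col9a3*, *Col16a1* and *Col25a1*. *Col3a1* rose by 2.90 ± 0.49 (adjusted p = 0.00126), with every MG N gland above every MG WT gland. *Col4a1* rose by 1.73 ± 0.30 (adjusted p = 0.00153) and *Col6a3* by 2.08 ± 0.37 (adjusted p = 0.00173). *Col17a1* fell by 3.502 ± 0.34 (adjusted p = 7.55e-05) and *Col4a5* fell by 1.80 ± 0.28 (adjusted p = 0.000787), both without overlap, and *Col9a2* fell by 2.55 ± 0.50 (adjusted p = 0.00266). *Col9a1* and *Col11a1* did not pass (0.31 ± 1.30, adjusted p = 0.852, and -0.30 ± 0.97, adjusted p = 0.805), nor did *Col1a1* (0.79 ± 0.58, adjusted p = 0.270). Under the other alternatives 10 losses were counted over genes and settings, and these are not listed by gene. Calls that ended with a library left out are given with their change and adjusted p. Leaving out MG N replicate 1 ended the calls of *Col8a1* (-2.11, 0.0520) and *Col25a1* (-1.11, 0.0717). Without MG N replicate 2, calls were lost for *Col4a2* (0.78, 0.00154) and *Col6a2* (0.77, 0.0584). Removal of MG N replicate 3 ended those of *Col6a2* (1.12, 0.0637). Leaving out MG N replicate 4 ended the calls of *Col6a2* (1.17, 0.0512) and *Col25a1* (-1.11, 0.0678). Without MG WT replicate 1, calls were lost for *Col6a2* (0.83, 0.151), *Col6a4* (-1.56, 0.0657), *Col7a1* (-1.34, 0.0681), *Col16a1* (-1.26, 0.0645), *Col22a1* (1.61) and *Col25a1* (-1.34, 0.0812). Removal of MG WT replicate 2 ended those of *Col4a2* (1.06, 0.0570), *Col4a6* (-2.33, 0.0505), *Col6a2* (0.98, 0.121), *Col6a4* (-1.62, 0.0585) and *Col25a1* (-1.18, 0.106). Leaving out MG WT replicate 3 ended the calls of *Col4a2* (1.10, 0.0527), *Col4a6* (-1.85, 0.0766), *Col22a1* (1.46) and *Col25a1* (-1.51, 0.0531).

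Glands of *NP* mice were compared with the same 3 wild-type glands, so both comparisons share MG WT and its values. Of 43 members, 4 rose and 11 fell, beside 16.4% higher and 16.2% lower of all genes, and the median was 0.03 over the members and 0.02 over all genes. The same 3 members passed through their higher group, beside 2 other rises and 10 other falls. *Col5a2* rose by 1.08 ± 0.26 (adjusted p = 0.0131), *Col22a1* by 4.31 ± 0.84, *Col26a1* by 2.77 ± 0.39 and *Col28a1* by 1.67 ± 0.52 (adjusted p = 0.0330). The falls were those of *Col2a1*, *Col4a5*, *Col4a6*, *Col7a1*, *Col8a1*, *Col8a2*, *Col9a2*, *Col9a3*, *Col12a1*, *Col16a1* and *Col17a1*. Side by side, the log2 changes in MG N and MG NP were -3.502 and -3.38 for *Col17a1*, -1.80 and -1.84 for *Col4a5*, -1.75 and -1.88 for *Col9a3*, and 2.90 and 1.002 for *Col3a1*. With the muscle score as a covariate 2 members were called lower, only *Col12a1* among the 11, and *Col9a2*, *Col9a3* and *Col16a1* turned sign (0.69, 0.20 and 0.21). Without MG NP replicate 3 *Col22a1* was at 4.90, and it was at 0.16 with that covariate. *Col8a1* rested on MG WT replicate 2, at 903, 8350.0 and 1158 in MG WT, and its changes of -2.20 and -2.15 were -1.19 and -1.14 without it and -2.80 and -2.74 without MG WT replicate 1. *Col2a1* changed by -3.18 and -2.94, with -3.78 and -3.54 without MG WT replicate 1 and -2.54 and -2.30 without replicate 3. Under the other alternatives, the muscle covariate included, 16 losses were counted over genes and settings. Given again as change and adjusted p, calls ended with a library left out as follows. Leaving out MG NP replicate 1 ended the calls of *Col8a1* (-2.11, 0.0773) and *Col28a1* (1.43, 0.0699). Without MG NP replicate 2, calls were lost for *Col8a1* (-2.09, 0.0777). Removal of MG NP replicate 3 ended those of *Col5a2* (0.86, 0.00679) and *Col8a1* (-2.13, 0.0666). Leaving out MG NP replicate 4 ended the calls of *Col8a1* (-2.28, 0.0579) and *Col28a1* (1.45, 0.0684). Without MG WT replicate 1, calls were lost for *Col5a2* (0.96, 0.0581), *Col9a2* (-2.06, 0.0610), *Col9a3* (-1.79, 0.0600), *Col16a1* (-1.34, 0.0754) and *Col28a1* (1.55, 0.106). Removal of MG WT replicate 2 ended those of *Col9a2* (-2.10, 0.0575). Leaving out MG WT replicate 3 ended the calls of *Col8a1* (-2.56, 0.0544) and *Col28a1* (1.43, 0.116).

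Cell-type markers moved with these gland comparisons. In MG N minus MG WT all 10 luminal and all 7 basal genes fell (medians -2.35 and -2.98), all 9 adipocyte genes rose (median 10.29), and 6 of 10 fibroblast genes rose with 0 lower (median 1.33). In MG NP minus MG WT the same counts held for the epithelial and adipocyte lists (medians -2.32, -2.81 and 9.40), and 4 fibroblast genes rose and 1 fell (median 0.61). Macrophage genes rose in 8 of 8 and 7 of 8 (medians 2.50 and 1.87), and skeletal muscle genes in 16 and 20 of 20 (medians 4.53 and 10.23). Endothelial genes rose in 3 and 1 of 10 (medians 0.51 and 0.27), and of 10 pericyte and smooth muscle genes 3 rose and 5 fell in MG N and 4 rose and 5 fell in MG NP (medians -0.65 and -0.19). Without genes that passed the filter through their higher group, 7 and 11 muscle, 6 and 6 adipocyte and 5 and 3 fibroblast rises and 6 and 6 basal falls are left, and over all genes the calls were 19.1% higher and 17.9% lower, and 16.4% higher and 16.2% lower. The part of these markers in the collagen differences was not tested. The muscle score was 3.65 to 4.03 in MG WT and 9.08 to 16.98 in MG NP. With no overlap, the muscle covariate cannot separate muscle from group in MG NP minus MG WT.

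Between tumor and gland the stromal lists fell together. All 10 tested fibroblast genes fell in T N (median -3.15) and 7 of 9 in T NP (median -2.35), as *Pdgfra* did (-3.62 and -3.07). Over all genes 22.3% and 24% fell, and 8 and 6 fibroblast falls are left without genes that passed the filter through their higher group. The 11 genes, led by *Pdgfra*, summed to 0.0309, 0.0422 and 0.0378% of the library in MG WT, 0.0825, 0.126, 0.0952 and 0.0857% in MG N, 0.0609, 0.0529, 0.0579 and 0.056% in MG NP, 0.0192, 0.0093, 0.0254 and 0.0094% in T N and 0.0156, 0.0149, 0.018 and 0.014% in T NP. All 10 endothelial genes fell in both (medians -2.16 and -1.90), among them *Cldn5* (-3.63 and -2.82). Of 10 pericyte and smooth muscle genes 7 fell in T N and 8 in T NP (medians -1.66 and -1.75), including *Myh11* (-4.33 and -4.41). All 9 adipocyte genes fell in both (medians -8.50 and -7.45). Luminal genes went up, 7 of 10 in T N and 8 in T NP (medians 2.49 and 2.76), beside 12.8% and 14.7% over all genes. *Epcam* rose as well (3.62 and 3.498), and *Krt19* was the 1 luminal gene that fell in both. Macrophage genes fell in 3 and 2 of 8 (medians -0.66 and -0.05). Skeletal muscle genes fell in 0 of 20 in T N and 19 of 20 in T NP (medians -1.58 and -7.59). Beside these lists, *Col4a3*, *Col5a3*, *Col6a1*, *Col6a2*, *Col6a4*, *Col6a5*, *Col15a1*, *Col17a1*, *Col23a1* and *Col28a1* were called lower in both comparisons. *Col1a1*, *Col1a2*, *Col5a2*, *Col4a1* and *Col4a2* were among those that did not pass in either. *Col4a5* and *Col12a1* were among those that rose in both. The part of each cell type in the collagen differences was not tested.

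Among enzymes that modify and fold collagen chains, both rises and falls were called in the tumors. Of 19 hydroxylation, glycosylation and folding genes, 4 rose and 3 fell in T N (median 0.20), beside 12.8% higher and 22.3% lower over all genes, and 6 rose and 2 fell in T NP (median 0.36), beside 14.7% higher and 24% lower, where 1 of the rises passed the filter through its higher group. *P4hb*, a subunit of prolyl 4-hydroxylase, was at 9209.7, 10929.5, 10325 and 8803 in MG NP and 13564, 12483, 11277 and 9855 in MG N, and in tumors at 27917, 35437, 30255 and 35730.3 in T N and 33862, 32301, 27124 and 35310.3 in T NP. It rose by 1.46 ± 0.17 (adjusted p = 0.000262) in T N and by 1.71 ± 0.15 (adjusted p = 4.95e-05) in T NP, without overlap. *Plod2*, a lysyl hydroxylase of the collagen telopeptides, rose by 1.61 ± 0.32 (adjusted p = 0.00338) in T N and by 2.38 ± 0.18 (adjusted p = 2.93e-05) in T NP. *P3h2*, a prolyl 3-hydroxylase, rose by 1.66 ± 0.27 (adjusted p = 0.00129) in T N and by 2.23 ± 0.22 (adjusted p = 9.02e-05) in T NP, and the galactosyltransferase *Colgalt2* fell by 2.77 ± 0.48 (adjusted p = 0.00183) in T N and fell by 2.18 ± 0.24 (adjusted p = 0.000139) in T NP. Of 8 procollagen export genes, 0 rose and 1 fell in T N (*Tmem38b*, an endoplasmic reticulum cation channel, -1.06; median 0.16) and limma called 0 in T NP, with 4 at an unadjusted p under 0.05 beside 61.2% of all genes (median 0.18).

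Most tested genes of procollagen cleavage and fibril assembly fell in the tumors, and differences between the lists given here were not tested. Over all genes the calls were 12.8% higher and 22.3% lower in T N minus MG N, and 14.7% higher and 24% lower in T NP minus MG NP. Of 7 tested procollagen cleavage genes, 5 fell and 1 rose in T N (median -1.93) and 4 fell and 1 rose in T NP (median -1.86). *Pcolce2*, an enhancer of C-propeptide removal, fell by 5.92 ± 0.92 (adjusted p = 0.00108) in T N and fell by 4.81 ± 0.31 (adjusted p = 1.37e-05) in T NP, while the N-propeptidase *Adamts3* rose by 2.05 ± 0.44 (adjusted p = 0.00484) in T N and by 2.05 ± 0.29 (adjusted p = 0.000493) in T NP. Of 10 fibril assembly partners, 7 fell in T N (median -2.36) and 8 in T NP (median -1.96), and 0 rose by limma. Decorin, *Dcn*, a proteoglycan on the surface of type I fibrils, was at 19041, 22469, 13724 and 26331 in MG NP and 30524, 31747, 26974 and 32091 in MG N, and in tumors at 795, 219, 3246 and 314 in T N and 507, 876, 626 and 516 in T NP. Every tumor lay below every gland, and *Dcn* fell by 5.54 ± 0.72 (adjusted p = 0.000482) in T N and fell by 5.01 ± 0.24 (adjusted p = 6.08e-06) in T NP. *Dpt* fell by 5.71 ± 0.87 (adjusted p = 0.000993) in T N and fell by 4.73 ± 0.26 (adjusted p = 8.56e-06) in T NP. Of 9 tested receptors and uptake genes, 1 rose and 2 fell in each tumor comparison (medians -0.45 and -0.54). The collagen receptor kinase *Ddr1*, found in epithelium, rose by 2.53 ± 0.23 (adjusted p = 0.000110) in T N and by 2.52 ± 0.25 (adjusted p = 8.60e-05) in T NP. Its relative *Ddr2*, found in mesenchymal cells, fell by 3.87 ± 0.42 (adjusted p = 0.00022) in T N and fell by 2.95 ± 0.40 (adjusted p = 0.000424) in T NP, and the integrin chain *Itga11* fell by 1.85 ± 0.57 (adjusted p = 0.0242) in T N and fell by 2.17 ± 0.40 (adjusted p = 0.00202) in T NP.

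Ratios of chains that assemble together or belong to the same type show how the mixture shifted. They compare levels per kb within a sample and carry no test. The median ratio of *Col11a1* to *Col1a1* was 0.0183 in MG WT, 0.0055 in MG N, 0.0185 in MG NP, 1.64 in T N, and 1.52 in T NP. In T N it spanned 0.336 to 1.94, and its lowest value there lay above the highest gland value of 0.117. *Col11a1* per kb also exceeded *Col5a1*, with which it can share fibrils, by medians of 11.1 in T N and 10.6 in T NP, against 0.0962 in MG WT. With the longest transcript as length these medians were 18.2, 17.4 and 0.158. The median of *Col11a1* over *Col1a1* was then 2.47 in T N and 2.29 in T NP. The ratio of *Col9a1* to *Col9a2* was 0.061 in MG WT, 0.204 in MG N, 0.837 in MG NP, 5.12 in T N, and 4.35 in T NP. It overlapped between tumor and gland, since MG N replicate 1 was at 10.7 and the tumors ran from 1.76 to 17.7. The ratio of *Col3a1* to *Col1a1* was 0.988 in MG WT, 4.28 in MG N, 2.92 in MG NP, 1.04 in T N, and 1.05 in T NP, so that the median was highest in the glands of tumor-bearing mice. By the longest transcript these medians were 1.57 in MG WT, 6.82 in MG N, 4.66 in MG NP, 1.66 in T N and 1.68 in T NP. Which chain was ahead in MG WT thus depends on the length used. The ratio of *Col1a1* to *Col1a2* was 1.71 in MG WT, 1.25 in MG N, 1.10 in MG NP, 1.67 in T N, and 1.64 in T NP. With the longest transcript as length the same medians were 0.816 in MG WT, 0.593 in MG N, 0.522 in MG NP, 0.793 in T N, and 0.779 in T NP, so that which chain was ahead depends on the length used. *Col4a1* over *Col4a2* was 1.31 in MG WT, 2.01 in MG N, 1.91 in MG NP, 2.31 in T N, and 2.17 in T NP, and *Col6a1* over *Col6a2* 2.18 in MG WT, 2.85 in MG N, 2.46 in MG NP, 2.95 in T N, and 2.88 in T NP. By the longest transcript the medians of *Col6a1* over *Col6a2* were 1.37, 1.79, 1.55, 1.86 and 1.81 in the same order of groups. *Col4a3* over *Col4a4* was 0.625 in MG WT, 0.704 in MG N, 0.858 in MG NP, 0.0854 in T N, and 0.12 in T NP, with no overlap between tumors (at most 0.233) and glands (at least 0.459). *Col4a5* over *Col4a6* was 26.7 to 52.4 in T N replicates 1, 2 and 3 and T NP replicate 1, and 2.17 to 3.37 in the other 4 tumors, within the 0.917 to 11.8 of the glands. Between tumors and glands the ratios *Col1a1*/*Col1a2*, *Col4a1*/*Col4a2* and *Col6a1*/*Col6a2* overlapped as well.

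Several members lie beside each other in the genome, and differences between neighbors were not tested. *Col4a1* and *Col4a2* lie head to head on chromosome 8 with 22 bp of overlap. *Col4a4* and *Col4a3* lie head to head on chromosome 1, 71 bp apart, as do *Col4a6* and *Col4a5* on chromosome X, 1308 bp apart. *Col9a1* and *Col19a1* lie tail to tail on chromosome 1 with 9205 bp between them, and in tumors *Col9a1* held at least 14048 normalized counts while *Col19a1* held at most 1.30. *Col6a6*, *Col6a5* and *Col6a4* follow each other on chromosome 9, with gaps of 27917 and 28810 bp. *Col6a2* and *Col6a1* lie on chromosome 10, 85161 bp apart, and fell in both comparisons.

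Start regions were taken from RefSeq (GRCm38.p6) as 250 bases before to 50 after each start. There were 38 windows for 35 of the 44 members among 32851 windows in all. These letters were searched on both strands: TATAAA in 13.2% of the collagen windows and 13.6% of all, CCAAT in 34.2% of the collagen windows and 37.4% of all, GGGCGG in 60.5% of the collagen windows and 35.7% of all, ACAAAG in 13.2% of the collagen windows and 18.7% of all, and ACAATG in 2.6% of the collagen windows and 12.6% of all. The last 2 are cores of SOX sites. A match is a description of letters only. The windows of the members with the largest rises by limma, *Col9a1* and *Col11a1*, are printed because both genes were higher in all 8 tumors than in every gland. Those of the head-to-head pair *Col4a5* and *Col4a6* are printed because their ratio stood above that of every gland in 4 of 8 tumors. The *Col9a1* windows lie at chr1:24177360-24177659 and chr1:24194953-24195252 on the plus strand, *Col11a1* at chr3:114030290-114030589 on the plus strand, *Col4a5* at chrX:141475169-141475468 on the plus strand and *Col4a6* at chrX:141474027-141474326 on the minus strand. Each is written 5′ to 3′ in lower case with the 5 motifs and their reverse complements in capitals. The upstream *Col9a1* window holds none of them, the downstream one holds 1 CCAAT, *Col11a1* holds 1 CCAAT and 2 GGGCGG, *Col4a5* holds 1 of each of these, and *Col4a6* holds 1 GGGCGG.
Col9a1_upstream: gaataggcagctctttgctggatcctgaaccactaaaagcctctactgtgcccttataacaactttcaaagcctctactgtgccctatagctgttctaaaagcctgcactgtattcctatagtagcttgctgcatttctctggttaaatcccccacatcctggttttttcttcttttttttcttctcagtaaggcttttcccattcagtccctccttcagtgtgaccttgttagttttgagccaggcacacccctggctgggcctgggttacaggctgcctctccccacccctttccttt
Col9a1_downstream: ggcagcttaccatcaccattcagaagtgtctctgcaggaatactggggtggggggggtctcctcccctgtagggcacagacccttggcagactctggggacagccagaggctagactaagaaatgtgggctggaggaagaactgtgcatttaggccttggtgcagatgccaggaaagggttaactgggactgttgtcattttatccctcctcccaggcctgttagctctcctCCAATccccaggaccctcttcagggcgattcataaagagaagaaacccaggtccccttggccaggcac
Col11a1: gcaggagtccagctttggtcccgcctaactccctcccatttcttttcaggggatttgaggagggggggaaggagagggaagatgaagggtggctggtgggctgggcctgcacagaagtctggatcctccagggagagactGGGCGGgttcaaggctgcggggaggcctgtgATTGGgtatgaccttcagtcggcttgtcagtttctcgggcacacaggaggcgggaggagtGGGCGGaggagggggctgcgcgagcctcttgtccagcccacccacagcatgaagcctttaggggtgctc
Col4a5: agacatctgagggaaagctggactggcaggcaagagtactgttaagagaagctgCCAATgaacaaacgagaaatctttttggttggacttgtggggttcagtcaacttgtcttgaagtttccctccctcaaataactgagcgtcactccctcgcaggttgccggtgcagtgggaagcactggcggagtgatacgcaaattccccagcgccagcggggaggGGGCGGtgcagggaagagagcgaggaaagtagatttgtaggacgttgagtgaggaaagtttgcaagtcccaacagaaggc
Col4a6: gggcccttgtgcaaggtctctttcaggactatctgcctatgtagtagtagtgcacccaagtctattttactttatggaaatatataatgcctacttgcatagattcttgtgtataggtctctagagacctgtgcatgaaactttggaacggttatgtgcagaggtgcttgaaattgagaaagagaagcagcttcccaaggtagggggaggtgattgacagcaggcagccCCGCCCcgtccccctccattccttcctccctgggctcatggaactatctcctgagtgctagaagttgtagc

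Some replicates were the highest of their group for many collagens, and the share over all genes was not counted. Among members with a group mean of at least 10 normalized counts, T N replicate 3 was the highest of its group in 22 of 40, T NP replicate 3 in 24 of 42, MG N replicate 2 in 19 of 42, and MG NP replicate 3 in 27 of 42. Each of these groups holds 4 libraries. MG NP replicate 3 also held the least skeletal muscle RNA of its group, at 0.132% of the library. T N replicate 3 held 69617 normalized counts of *Col1a1* and the highest fibroblast sum of the tumors, 0.0254% of the library.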

How the data were processed

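Total or messenger RNA of 19 samples was sequenced; the labels name a TruSeq stranded total RNA kit and the paper a TruSeq mRNA kit, on a HiSeq3000 with 75-bp paired ends. Per the labels, the authors aligned reads to GRCm38 with TopHat2 2.1.1 and Bowtie2 and deposited DESeq2 normalized counts, a signal on a linear scale. The counting tool, its annotation and its use of strand are not stated. Whole reads were recovered by dividing each library by its smallest step, and at a tolerance of 0.05 reads 100% of values were whole in every library. Gene symbols and exon lengths came from GENCODE vM21, which matched 98.16% of identifiers and left 849 unmatched.

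Each comparison was fitted with its own groups only in limma 3.58.1 (linear model and empirical Bayes with a trend) under R 4.3.3, on log2 of the normalized count plus 1. Genes needed at least 10 normalized counts in as many samples as the smaller group holds. A gene was called at a Benjamini-Hochberg adjusted p under 0.05 over all genes tested and a change of at least 2-fold, and errors after ± are standard errors unless given as SD. Because the deposited unit is normalized counts, the count tests edgeR 4.0.16 and DESeq2 1.42.0 on recovered reads served as alternatives; for T N minus MG N they called 2429 higher and 3789 lower and 2567 higher and 3939 lower of all genes, beside 2289 higher and 4009 lower by limma. Other alternatives were pseudocounts of 0.5 and 5, no filter or a mean of at least 50, TMM scaling, library totals, no fold threshold, all groups in a single fit, a replicate block, a skeletal muscle covariate, T NP replicates 1 and 2 averaged, and each library left out. The limma procedure was tested on simulated data. The rule for giving a change without a p was chosen after the values were seen.

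Values in every sample are given for the 10 members with the highest mean level per kb, the cartilage-type members and the members with the largest falls. Others described beside them were chosen after their values were seen. Of the other lists (hydroxylation and folding, export, cleavage, fibril assembly, receptors, cartilage matrix, bone, and markers of fibroblasts, pericytes, endothelium, luminal and basal epithelium, adipocytes, skeletal muscle and macrophages) up to 4 genes with the largest change among those called in T N minus MG N were named, with defining markers, and any others after their values were seen. Members and lists were chosen with earlier results of these data known. Levels between genes are per kb of merged exons, with the longest transcript as the alternative. No sample was left out.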

Additional observations from a re-analysis of the deposited data

Results flagged for a closer look

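In each group of 4 the highest and lowest sample of every collagen gene with a group mean of at least 10 normalized counts was compared with the rest of its group. Of 166 such groups, 19 held a sample whose gap to its nearest neighbor was a larger part of the whole log2 range than Dixon's 95% critical value, and chance gives about 1 in 20. In T N replicate 3 4 fibrillar genes and *Col6a3* stood above the other tumors: *Col1a1* was at 69617 against 7676 to 11066 normalized counts, *Col1a2* at 73345 against 9479 to 13447, *Col5a1* at 10527 against 1480.4 to 2052, *Col5a2* at 17993 against 4291 to 4793 and *Col6a3* at 12714 against 5042 to 5095. MG N replicate 2 was high for *Col4a1* (73889 against 30409.5 to 35104), *Col5a1* (17915 against 6298 to 7382) and *Col6a3* (49411 against 16721 to 19574). Within MG NP, replicate 3 was high for *Col1a1* (18480.3 against 4926 to 6001), and replicate 2 low for *Col27a1* (591 against 837 to 883). MG NP replicate 4 was low for *Col4a5* (817 against 1893 to 2037), *Col8a2* (43.9 against 79.2 to 87.1) and *Col13a1* (62.0 against 175 to 204). For *Col4a6*, T N replicate 4 was high (4557 against 255 to 379) and T NP replicate 1 low (290.4 against 4517 to 5098). The rest were *Col9a1* in T N replicate 2 (14048 against 53575 to 66822), *Col16a1* in T N replicate 4 (713 against 5001 to 5901), *Col15a1* in T NP replicate 3 (2985 against 1197 to 1384) and *Col9a2* in MG N replicate 3 (918 against 215 to 222). In the interaction of tissue and genotype limma called 0 collagens, with 3 at an unadjusted p under 0.05, and edgeR and DESeq2 called 0.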

How the results depend on the processing

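Counts of called collagens were recomputed under other pseudocounts, filters, scalings, tools and fits and with each library left out. Over T N minus MG N and T NP minus MG NP every count stayed within 1.5 times of the reported one under all of these, though with the muscle covariate the T NP falls went from 15 to 10, of which 9 were among the 15. Of counts elsewhere, MG N minus MG WT lower went from 12 to 7 with all 5 groups in a single fit, and MG NP minus MG WT higher from 4 to 7 with DESeq2 and to 7 without MG NP replicates 2 and 4, an alternative chosen after seeing the data. MG NP minus MG WT lower went from 11 to 2 with the skeletal muscle score as a covariate. DESeq2 called 1 higher and 5 lower in MG NP minus MG N and 1 lower in T NP minus T N, where limma and edgeR called 0. With each library left out in turn, the counts higher and lower were 9 to 10 and 13 to 16 in T N minus MG N, 11 to 12 and 14 to 18 in T NP minus MG NP, 10 to 14 and 8 to 13 in MG N minus MG WT, 2 to 5 and 8 to 12 in MG NP minus MG WT, 0 to 1 and 0 in MG NP minus MG N, 0 and 0 to 1 in T NP minus T N, and 0 and 0 in the interaction. Without MG WT replicate 1, 2 rose in MG NP minus MG WT; without MG NP replicate 3, 1 rose in MG NP minus MG N; without T N replicate 1, 1 fell in T NP minus T N. Single changes turned direction only under the muscle covariate. These were *Col24a1* to 0.27 in T NP minus MG NP and, in MG NP minus MG WT, *Col9a2* to 0.69, *Col9a3* to 0.20 and *Col16a1* to 0.21. In both comparisons the muscle scores of the groups did not overlap, so the fit cannot separate muscle from group. The cause was not tested. Of all other single changes and class levels, 1718 kept their direction and side of the threshold or stayed within the spread, 97 lost their call and 16 class levels moved, all with the longest transcript as length. Under edgeR *Col9a1*, *Col10a1* and *Col11a1* were at 5.52, 5.63 and 5.58 in T N minus MG N. With a pseudocount of 5 *Col10a1*, *Col17a1* and *Col6a4* were at 3.11, -6.02 and -3.81 there. DESeq2 gave no adjusted p for *Col8a1* in either comparison with MG WT, so no value is counted. The labels repeat replicate numbers between groups, and a fit with them as a replicate block called 10 higher and 15 lower in T N minus MG N, 11 and 15 in T NP minus MG NP, 17 and 11 in MG N minus MG WT, 3 and 9 in MG NP minus MG WT, and 0 in the rest. In T NP minus MG NP this block ended the calls of *Col24a1* (-2.14, adjusted p = 0.0566) and *Col28a1* (-1.24, adjusted p = 0.0696), so its 15 falls are not the same genes. Deviations of samples with the same number correlated at -0.28 to 0.319, and in no comparison did every sample correlate best with its own number. Scaling to library totals moved the median log2 change of all genes from -0.05 to -0.15 in T N minus MG N, 0.02 to 0.12 in MG N minus MG WT, -0.02 to -0.18 in MG NP minus MG N and -0.003 to 0.16 in the interaction, and TMM from -0.07 to 0.03 in T NP minus MG NP. Over all genes, DESeq2 called 401 higher and 113 lower in MG NP minus MG N where limma called 0, 51 higher and 34 lower in T NP minus T N where limma called 6 higher and 1 lower, and 50 higher and 269 lower in the interaction, and without MG NP replicate 3 limma called 297 higher and 21 lower in MG NP minus MG N. With the muscle covariate it called 1644 higher and 2633 lower in T NP minus MG NP against 2625 higher and 4300 lower, and 946 higher and 1317 lower in MG NP minus MG WT against 3136 higher and 3081 lower. A group of 3 or 4 libraries limits what can be called, and members with few reads rest on few molecules.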
